A study of Mus musculus with 8 samples.

Results

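Genes for the proteins that store maternal mRNA were compared between polysomal and non-polysomal RNA of mouse oocytes at nuclear envelope breakdown (NEBD). They are 10 genes, Dazl, Ybx2, Zar1, Zar1l, Lsm14b, Patl2, Ddx6, Eif4enif1, Pabpc1l and Igf2bp3, taken by symbol from a table of 25574 genes, and all 10 were found. The RNA-seq data hold 4 libraries of the non-polysomal (NP) dataset and 4 of the polysomal (P) dataset, numbered as replicates 1 to 4 of each. Both datasets come from CD1 mice of 8 weeks that received 5 IU of pregnant mare serum gonadotropin and gave oocytes 46 h later. The oocytes were collected in 100 µM IBMX, which blocks the resumption of meiosis, then cultured without it for 180 min, and all were given 0.1 mg/mL cycloheximide for 10 min, which holds ribosomes on mRNA. Lysates of 200 NEBD-stage oocytes were spun through gradients of 10 to 50% sucrose and cut into 10 fractions, of which fractions 2 to 5 were pooled as NP and fractions 6 to 10 as P. The RNA was amplified before library preparation.

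A fully grown oocyte does not transcribe, and it enters meiosis with mRNAs that were made earlier and kept in ribonucleoprotein particles. Proteins that coat these mRNAs, bind elements in their 3′UTRs or hold their caps keep them silent and stable, and resumption of meiosis brings a part of them onto polysomes, often through lengthening of the poly(A) tail. The mRNAs of the storage proteins are themselves maternal mRNAs. Their place in the gradient is what was measured here.

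A cytoplasmic polyadenylation element (CPE) is a short motif in the 3′UTR through which a maternal mRNA can be held back or activated. The form TTTTAT was searched, together with a longer form written TTTTAAT and the longest form, which is spelled TTTTAAAT, none of which contains another. The search used the transcript strand in one GENCODE M21 transcript per gene (GRCm38). One match is shown for each of 5 genes, with the CPE in capitals, to let the storage genes be read beside their place in the gradient. All 5 lie in 3′UTRs.
Dazl, chr17:50279752-50279781, minus strand: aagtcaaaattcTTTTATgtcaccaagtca
Ybx2, chr11:69941532-69941561, plus strand: cctctgaagccaTTTTATgaactgtcatgt
Lsm14b, chr2:180035033-180035062, plus strand: ttctcattcacTTTTAAATgagccagtctt
Ddx6, chr9:44639893-44639922, plus strand: aagccatgttaTTTTAATtggatacttttt
Igf2bp3, chr6:49086722-49086751, minus strand: cttttttgaaaaTTTTATatactttataaa

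Dazl had 6 matches in a 3′UTR of 1852 bases and Ddx6 had 7 in 4250 bases. Lsm14b had 3 in 1177 bases, and Ybx2 and Igf2bp3 had 1 each. No match was found in the 3′UTRs of Zar1 (146 bases), Patl2 (366 bases) and Pabpc1l (499 bases), and the annotated 3′UTR of Zar1l, of 14 bases, was too short to be searched. Of 10827 tested genes with a 3′UTR to search, 63.4% held at least 1 match, and the median was 1.01 matches per kilobase, against 3.24 in Dazl, 2.55 in Lsm14b, 2.42 in Ybx2, 1.65 in Ddx6 and 0.47 in Igf2bp3. Of these genes only Ybx2 had a match in the last 100 bases of its transcript, where 21.3% of all genes had one. A match is a string of letters in this annotation and not a bound site.

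No storage gene differed between the P and NP datasets by limma at a Benjamini-Hochberg adjusted p under 0.1, where 3 of 14292 tested genes, 0.021%, were called. Zar1 had a log2 fold change, P over NP, of 1.22 ± 0.62 (SE) and Ddx6 one of 0.99 ± 1.13, while Ybx2 was at −1.47 ± 0.64. The order of Zar1 and Ddx6 depended on the setting, since Ddx6 was at 1.57 and Zar1 at 1.25 with quantile normalization. Ybx2 was the only member with an unadjusted limma p under 0.05, and its adjusted p was 0.479. The same direction, NP higher, at this unadjusted threshold held 9.47% of all tested genes. In the other direction, P higher, 0 of 10 members and 0.476% of all genes had one. Fewer genes were above 0 in every P library, 9139 to 11339, than in any NP library, 11703 to 13753. The part of this gap in the P over NP values was not tested. The log2 fold changes are on log2(FPKM + 1), where FPKM is the expression value of the table, relative to gene length and library size. Since FPKM is relative to each library, a P over NP value does not give the share of a gene's mRNA on polysomes.

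**Figure D1:**
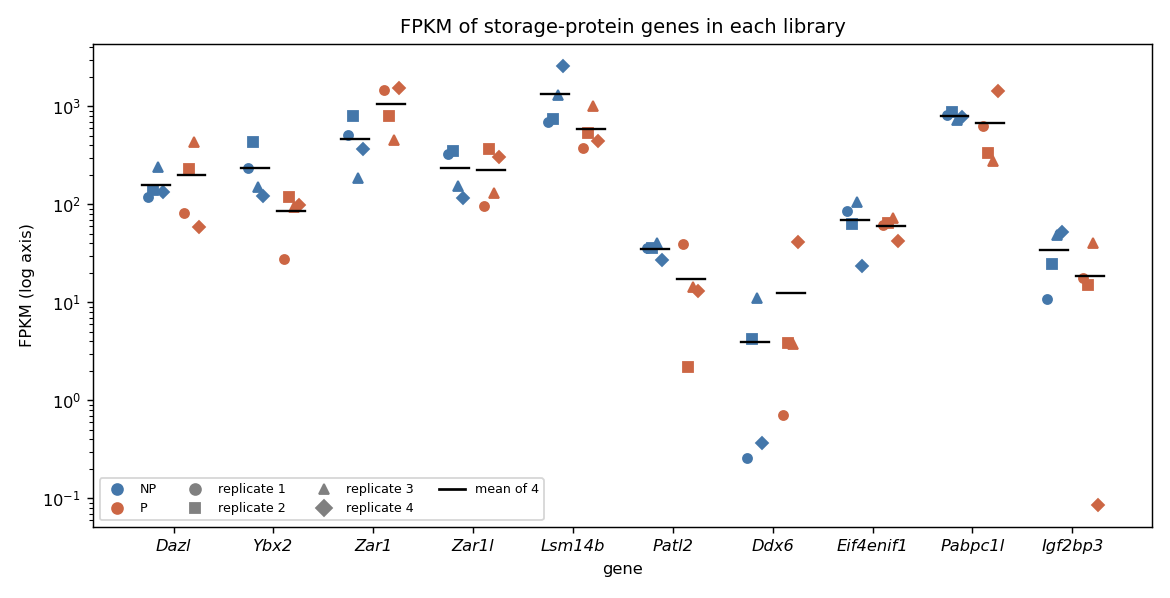
FPKM of the 10 genes (log axis) in each of the 4 NP and 4 P libraries, with the shape of a point giving the replicate number and a bar the mean of 4. Only the Ybx2 points do not overlap between the datasets, with 27.7 to 120.3 in P and 121.3 to 429.9 in NP.

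The Y-box gene Ybx2 and the Zar genes are described first. Ybx2 (chr11:69935796-69941605, plus strand) encodes a germ cell Y-box protein that coats and stabilises maternal mRNA. In NP it was at 237.6, 429.9, 150.9 and 121.3 FPKM in replicates 1 to 4. Its P values were 27.7, 120.3, 93.0 and 98.1 FPKM. All 4 P libraries lay below all 4 NP libraries, as did 846 of the tested genes, 5.92%, while P lay above NP for 0.357%. The margin was narrow, 120.3 in P against 121.3 in NP, and replicate 1 of P was far below the others. The mean was 234.9 ± 139.0 in NP and 84.7 ± 39.9 in P (SD, n = 4), a ratio of 0.361, and the exact permutation test gave p = 0.0286, 2-sided, the smallest that 70 assignments allow. By its percentile within each library the values overlapped, at 93.6 to 98.4 in NP and 79.4 to 95.0 in P (exact permutation p = 0.0857), and they also overlapped after quantile normalisation.

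Zar1 (chr5:72577114-72581084, minus strand) encodes zygote arrest 1, an oocyte RNA-binding protein. It was at 512.6, 801.4, 183.9 and 364.2 FPKM in NP. The P values were 1480, 789.1, 453.7 and 1548 FPKM. Replicates 1 and 4 of P were above every NP library, and replicates 2 and 3 lay within the NP range. The mean was 465.5 ± 261.2 in NP and 1068 ± 534.0 in P (SD, n = 4), a ratio of 2.29, and limma gave an adjusted p of 0.527. Zar1 was among the most abundant mRNAs in both datasets, at percentiles of 96.9 to 99.3 in NP and 99.2 to 99.7 in P.

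Zar1l (chr5:150507055-150518164, minus strand), the relative of Zar1, was at 325.2, 350.8, 155.0 and 115.5 FPKM in NP. Its P libraries had 96.1, 368.4, 131.2 and 305.4 FPKM. The highest and the lowest of the 8 values were both in P, and the limma difference was −0.13 ± 0.62 (adjusted p = 0.932). Zar1 was above Zar1l in all 8 libraries, by 1.97 times on the means in NP and 4.74 times in P.

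Lsm14b, Patl2, Ddx6 and Eif4enif1 encode parts of the repressive particle that sits on stored mRNA. Lsm14b (chr2:180024987-180035465, plus strand), an Lsm-domain protein of oocyte ribonucleoprotein particles, had the highest mean of the members in NP, although Pabpc1l was above it in 2 of 4 NP libraries. It was at 690.2, 746.2, 1292 and 2585 FPKM in NP. P libraries had 379.0, 530.1, 1019 and 440.6 FPKM. Replicate 3 of P alone lay inside the NP range, and without it all P libraries were below NP. The means were 1328 ± 880.6 in NP and 592.2 ± 291.2 in P (SD, n = 4), with a limma difference of −1.06 ± 0.59 and an adjusted p of 0.542.

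Patl2 (chr2:122120108-122186189, minus strand) encodes the oocyte form of the Pat1 repressor. It was at 35.5, 36.0, 40.1 and 27.2 FPKM in NP, a narrow range. The P libraries had 39.7, 2.18, 14.3 and 13.0 FPKM. Replicate 1 of P was as high as NP and the other 3 were below all NP libraries. The limma difference was −1.45 ± 0.78 (adjusted p = 0.535), and the SD of log2(FPKM + 1) was 0.23 in NP and 1.52 in P.

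Ddx6 (chr9:44604892-44640731, plus strand), a DEAD-box helicase of repressed mRNA particles, was the least abundant member by its mean in both datasets. It was at 0.258, 4.19, 11.1 and 0.369 FPKM in NP. Among P libraries it was at 0.702, 3.81, 3.78 and 41.7 FPKM. A single P library, replicate 4, carried the high mean of P, 12.5 against 3.97 in NP, and without it the ratio of 3.14 became 0.696. NP replicate 1 held 5 counted units of Ddx6, an exact Poisson interval of 0.0839 to 0.603 FPKM for counting error only.

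Eif4enif1 (chr11:3202392-3244588, plus strand) encodes 4E-T, which binds the cap-binding protein eIF4E and represses translation. It was at 85.1, 63.2, 104.9 and 23.5 FPKM in NP. P values were 62.2, 64.6, 72.5 and 42.3 FPKM, so that P lay inside the NP range. The limma difference was −0.03 ± 0.61 (adjusted p = 0.985), the smallest among the members.

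The remaining members, Pabpc1l, Dazl and Igf2bp3, encode other RNA-binding proteins. Pabpc1l (chr2:164025450-164050538, plus strand) encodes the embryonic poly(A)-binding protein. It was at 818.5, 884.6, 719.6 and 786.7 FPKM in NP, the least variable values of any member (coefficient of variation 8.55%). The P dataset had 634.6, 333.9, 274.9 and 1450 FPKM. Replicate 4 of P was above, and the other 3 below, all NP libraries, and the limma difference was −0.57 ± 0.59 (adjusted p = 0.704).

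Dazl (chr17:50279394-50293599, minus strand), a germ cell RNA-binding protein that promotes translation of its target mRNAs, was at 120.1, 140.5, 239.1 and 134.1 FPKM in NP. In P it was at 82.5, 228.6, 435.0 and 58.3 FPKM. The P values spanned the whole NP range on both sides, over 7.47 times against 1.99 times in NP, and the limma difference was −0.04 ± 0.67 (adjusted p = 0.98).

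Igf2bp3 (chr6:49085221-49214954, minus strand) encodes an mRNA-binding protein of the IMP family. It was at 10.9, 24.8, 48.3 and 52.5 FPKM in NP. In P it was at 17.8, 14.9, 40.7 and 0.086 FPKM, the last resting on 1 counted unit. The limma difference of −1.48 ± 1.03 (adjusted p = 0.635) was −0.37 without that P library. Exons of Igf2bp3 overlap those of Malsu1 on the other strand, listed as 2410003K15Rik, and no source used here says whether the counting used strand. Malsu1 was at 14.3, 17.2, 6.74 and 8.38 FPKM in NP and at 4.56, 5.67, 3.07 and 0.243 FPKM in P, and its part in the Igf2bp3 values was not tested.

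By the ratio of mean FPKM, Zar1 and Ddx6 were over 2-fold higher in P, and Ybx2, Lsm14b and Patl2 over 2-fold higher in NP. Over all tested genes these shares were 16.9% and 40.6%. Most members were well above the typical gene, with a median of 169.8 FPKM against 5.38. Of the 5639 tested genes with a mean FPKM above 10, 748 were over 2-fold higher in P and 1396 over 2-fold higher in NP. Patl2, at a ratio of 0.499, lay just inside this limit and Igf2bp3, at 0.538, just outside. Leaving out 1 library put either gene on both sides of it, with 0.284 (without P replicate 1) to 0.644 (without P replicate 2) for Patl2 and 0.32 (without P replicate 3) to 0.717 (without P replicate 4) for Igf2bp3. Zar1 (1.91 to 3.02), Ddx6 (0.696 to 7.78) and Lsm14b (0.339 to 0.651) also crossed their 2-fold limit when 1 library was left out. Only Ybx2, at 0.31 to 0.499, stayed over 2-fold each time. The median log2 fold change of the members was −0.35, against −0.39 over all tested genes, and 8 of 10 members were below 0, against 71.4% of all genes. How near the 2 medians lay depended on the value added to FPKM. With 0.1 in place of 1 the members were at −0.35 and all genes at −0.83, and with 10 they were at −0.34 and −0.09.

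**Figure D2:**
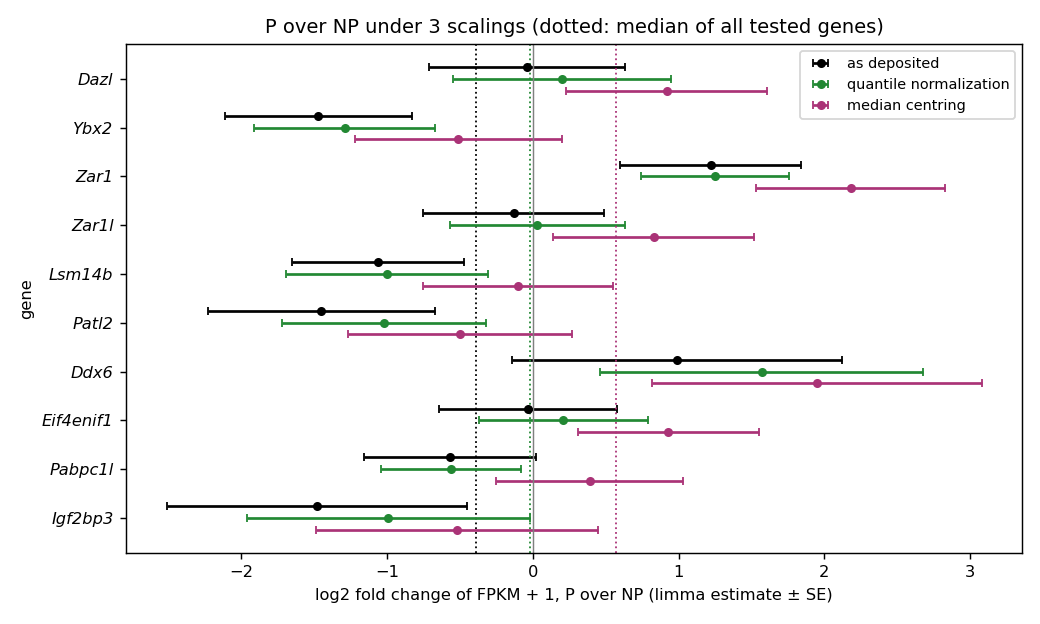
Log2 fold change of FPKM + 1, P over NP, with its SE from limma, for the 10 genes under the deposited scaling, quantile normalisation and median centring, with dotted lines at the median of all tested genes. That median is −0.39, −0.02 and 0.57, and the sign of Dazl, Zar1l, Eif4enif1 and Pabpc1l changes with the scaling.

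The sign of a small difference depended on the scaling. Median centring moved the median of all tested genes from −0.39 to 0.57, and it turned Dazl, Zar1l, Eif4enif1 and Pabpc1l from below to above 0. Relative to the median of all genes under the deposited scaling, Zar1 lay at 1.61 on the log2 scale, Ybx2 at −1.08, Patl2 at −1.06 and Igf2bp3 at −1.09. These distances hold for log2(FPKM + 1) only, since the median of all genes moved with the value added to FPKM. Zar1 was above 0, and Ybx2, Patl2, Lsm14b and Igf2bp3 below 0, under all 3 scalings.

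Ratios of members within a library do not depend on how the library was scaled. Of 45 pairs of members, 4 pairs, 8.89%, had ratios that did not overlap between P and NP. The share was 4.6% of pairs among the 7198 genes above 0 in all libraries, and the 4 pairs are not independent, since Zar1 is in 3 of them. The ratio of Zar1 to Ybx2 was 2.16, 1.86, 1.22 and 3.0 in NP. In P it was 53.5, 6.56, 4.88 and 15.8. Every P library thus had more Zar1 for its Ybx2 than any NP library. The ratio of Zar1 to Pabpc1l was 0.256 to 0.906 in NP and 1.07 to 2.36 in P, so that Zar1 was below Pabpc1l in all NP libraries and above it in all P libraries. The ratio of Zar1 to Patl2 was 4.58 to 22.2 in NP and 31.7 to 362.0 in P. The fourth pair was Ybx2 and Zar1l.

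**Figure D3:**
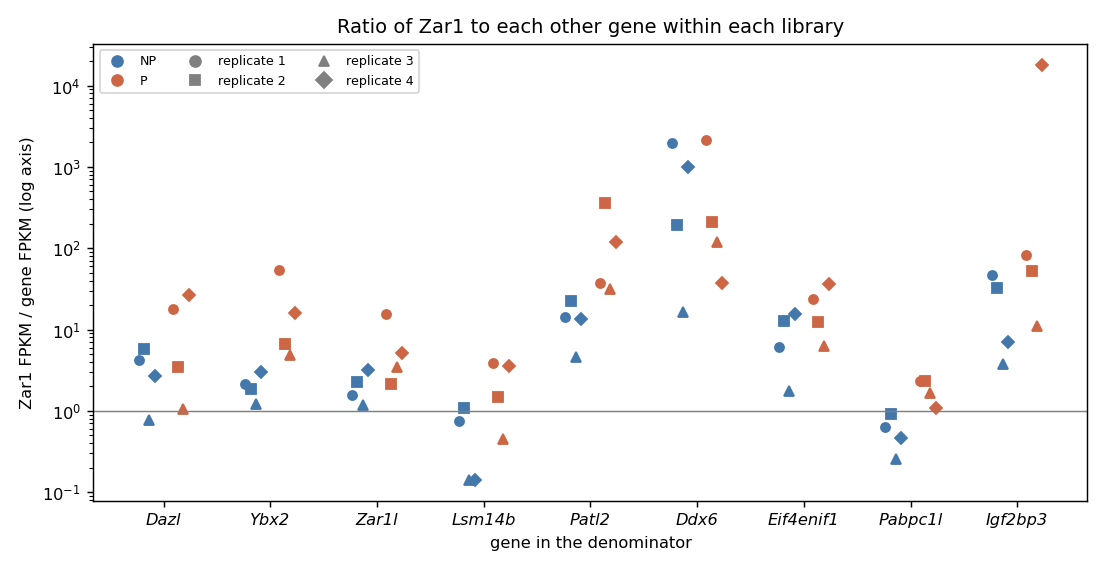
FPKM of Zar1 divided by the FPKM of each other gene within the same library (log axis), with colour for the dataset and shape for the replicate. The P points lie above all NP points for Ybx2, Patl2 and Pabpc1l, and they overlap for the other 6 genes.

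The order of the members also differed between the datasets, without a test. In NP the mean FPKM ran from Lsm14b (1328) through Pabpc1l (802.3), Zar1 (465.5), Zar1l (236.6), Ybx2 (234.9), Dazl (158.5), Eif4enif1 (69.2), Patl2 (34.7) and Igf2bp3 (34.1) to Ddx6 (3.97). Only Dazl and Eif4enif1, among neighbours in that order, had ranges that did not overlap. In P it ran from Zar1 (1068) through Pabpc1l (673.3), Lsm14b (592.2), Zar1l (225.3), Dazl (201.1), Ybx2 (84.7), Eif4enif1 (60.4), Igf2bp3 (18.4) and Patl2 (17.3) to Ddx6 (12.5). There the ranges of neighbours were apart between Lsm14b and Zar1l and between Eif4enif1 and Igf2bp3. Zar1 was the first of the 10 in 3 of 4 P libraries and in no NP library. The 10 genes together made up 0.474 to 0.731% of the summed FPKM in NP and 0.453 to 0.65% in P.

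The replicates of P were more spread. The SD of log2(FPKM + 1) was higher in P for 7 of 10 members, against 57.9% of all tested genes and 73.6% of those with a mean FPKM above 10. The high and low values were not all in 1 library, since P replicate 4 was the highest P library for 3 members and the lowest for 3.

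Relatives of the members, which share a family or a partner, were set beside them library by library. Lsm14b was above its somatic relative Lsm14a in all 8 libraries, by 27.1 times on the means in NP and 19.9 times in P. Pabpc1l exceeded the somatic poly(A)-binding protein gene Pabpc1 in all 8 libraries, by 61.0 and 30.1 times. Patl2 exceeded Patl1 in all 8 libraries as well, by 8.64 and 32.0 times, although Patl1 was listed at 14.9 FPKM in NP replicate 3. Igf2bp3 was below Igf2bp2 in all 8 libraries, at 0.181 times in NP and 0.261 times in P. Ybx2 was not ahead in the same way, since Ybx1 was higher in 5 of 8 libraries. Ybx3 was above Ybx2 in all 4 NP libraries and below it in 3 of 4 P libraries, and the difference between the datasets did not pass (exact permutation p = 0.371). The cap-binding partner Eif4e was above Eif4enif1 in 6 of 8 libraries and the oocyte form Eif4e1b in 7 of 8.

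**Figure D4:**
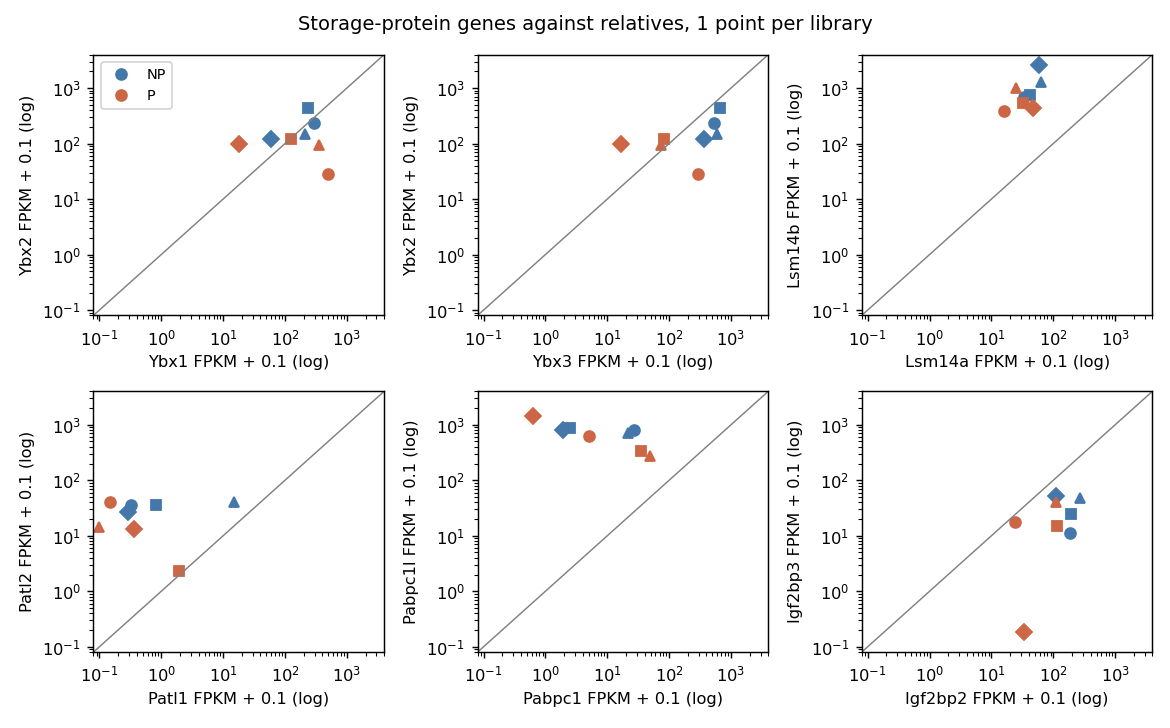
FPKM + 0.1 of 5 storage genes against that of their relatives, on log axes, with 1 point per library and the line of equal FPKM. Lsm14b, Patl2 and Pabpc1l lie above the line in all 8 libraries, Igf2bp3 below it in all 8, and Ybx2 on both sides.

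Of 17 listed relatives, 14 were tested and none was called. The unadjusted limma p was under 0.05 for 3 of them, all lower in P, where 9.47% of all tested genes had such a p. Ybx3, a Y-box protein gene listed under the older symbol Csda, was at 523.7, 664.2, 594.6 and 366.0 FPKM in NP. Its P values were 293.0, 83.6, 72.6 and 16.6 FPKM, below every NP library, with a limma difference of −2.8 ± 0.74 (adjusted p = 0.376). Ybx1 was at −0.26 ± 0.92, and the difference of Ybx2 and Ybx1 between the datasets did not pass (exact permutation p = 0.486). Igf2bp2 was at 188.8 ± 64.2 FPKM in NP and 70.5 ± 48.2 in P (SD, n = 4), with a limma difference of −1.65 ± 0.65 (adjusted p = 0.44). Pabpn1, the nuclear poly(A)-binding protein gene, had a difference of −2.22 ± 1.02 (adjusted p = 0.495).

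Of 25 other RNA-binding regulators of translation and stability, 24 were tested and none was called. Stau2, a double-stranded RNA-binding protein of mRNA transport, and Zfp36l2, which promotes mRNA decay through AU-rich elements, had unadjusted limma p-values under 0.05, both lower in P. That is 2 of 24, near the 9.47% of all tested genes. Their limma differences were −1.94 ± 0.86 and −1.54 ± 0.66. Cpeb1, which binds the CPE, was at 181.3 ± 68.5 FPKM in NP and 305.8 ± 161.3 in P (SD, n = 4), a difference of 0.66 ± 0.57 (adjusted p = 0.665).

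A list of 15 mRNAs known to be translated during maturation, not picked for the NEBD stage of these oocytes, was fully tested. None of the 15 was called or had an unadjusted limma p under 0.05. All tested genes had a median log2 fold change of −0.39, with 71.4% below 0. The median of the 15 was −0.09, with 6 above and 9 below 0. They ran from Ccnb2, a cyclin B gene, at −1.39 ± 1.16 (adjusted p = 0.66) to Tpx2, a spindle assembly factor, at 1.12 ± 0.61 (adjusted p = 0.541). Btg4, which recruits a deadenylase, was at 700.8, 709.1, 726.1 and 990.1 FPKM in NP and at 686.4, 1200, 1416 and 1103 FPKM in P, with 3 P libraries above all NP libraries and a limma difference of 0.46 ± 0.5 (adjusted p = 0.715). Ccnb1, the main cyclin B gene of the oocyte, was at 1287 ± 306.4 FPKM in NP and 840.5 ± 387.8 in P (SD, n = 4), a limma difference of −0.7 ± 0.53 (adjusted p = 0.644).

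The libraries held oocyte RNA. The 8 oocyte markers summed to 5261 to 10860 FPKM in NP and 7234 to 28606 in P, while 11 granulosa cell markers summed to 6.07 to 78.2 FPKM in NP and 1.89 to 62.6 in P. Cyp19a1 was at 75.2 FPKM in NP replicate 4 and 62.6 in P replicate 2, and Kitl at 10.3 in P replicate 3. Of the defining granulosa markers, Amhr2, Foxl2, Inhba, Has2 and Ptx3 were listed at 0 in all 8 libraries.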

How the data were processed

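Per the submitters' notes and methods, reads were trimmed (Trim Galore 0.4.1), checked (FastQC 0.11.5) and aligned by HISAT2 2.0.5 to GRCm38, and FPKM was computed in Seqmonk. The deposited FPKM table, which the authors left on a linear scale, was used. The authors' table of expressed genes and their table of DESeq2 results, with fold changes and p-values, were not used. Each library was grouped by its title.

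P was compared with NP by a 2-sided moderated linear model of log2(FPKM + 1) in limma 3.58.1 (R 4.3.3; lmFit, trended eBayes). It covered the 14292 genes whose mean FPKM passed 0.1 in either dataset, without a replicate block, and the Benjamini-Hochberg threshold was 0.1. Single values were compared by exact permutation over 70 assignments. Both the fit and the permutations treat the libraries as independent, although NP and P were pooled from the same gradients. The script was tested on simulated data, where the planted changes were larger than those of the members and their spread was reduced. That test does not give the power to find differences of the members' size. The members and lists were chosen with earlier results of these data known. The genes named are the 10 members, fixed relatives, and up to 3 genes per list and direction with the smallest unadjusted p under 0.05; Cpeb1, Tpx2, Btg4, Ccnb1, Ccnb2 and Malsu1 were added after their values were seen.

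Values are whole multiples of a step, from which counted units were recovered for 13571 genes, 87.1% of those above 0, within a tolerance of 0.01 unit. They summed to 2128901 to 12427674 in NP and 4300374 to 8075280 in P. In every library this sum was above the total that FPKM is scaled to, as with 2128901 against 1299377 in NP replicate 2. A unit is thus not what that total counts. No source used here says if a unit is a fragment, a read or a part of a spliced read, so intervals may be too narrow. For Dazl, Zar1, Ddx6 and Igf2bp3 the length was searched for and not annotated. Amplified reads without molecular identifiers are not independent molecules. The 3′UTR search of Eif4enif1 is not reported here. The older symbol of Ybx3 was found in RefSeq.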

Additional observations from a re-analysis of the deposited data

Results flagged for a closer look

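The Ddx6 value of P replicate 4, 41.7 FPKM, stood far from the other 3 P libraries, at 0.702 to 3.81 FPKM, by Dixon's test (gap over range 0.924, above the 95% limit for 4 samples). It was the only one of 20 groups tested, the 10 genes in each dataset, and chance marks about 1 in 20 groups. The flag rests on linear FPKM. On log2(FPKM + 1), the scale of the limma fit, the P values were 0.77, 2.26, 2.26 and 5.42 in replicates 1 to 4, and Dixon's test was not run on them.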

How the results depend on the processing

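No member was called under any of the 16 alternatives to the limma fit, and Zar1, Ybx2, Lsm14b, Patl2, Ddx6 and Igf2bp3 kept the sign of their log2 fold change in all of them. The 3 genes called became 5 with a pseudocount of 0.1 and with a mean FPKM above 1, and 0 with a pseudocount of 10, without a filter on low values, with quantile normalization and with median centring. It was 0 to 5 when 1 library was left out. With voom on recovered units, chosen after seeing the data, 189 of 12880 genes were called, 187 of them lower in P. The median of all genes was −0.91 with voom and −0.58 with a mean FPKM above 1, while that of the members was −0.32 and −0.35. The lowest adjusted p of any member was 0.113, for Zar1 with median centring, with a log2 fold change of 2.18. Median centring gave a median of the members of 0.61, and values of 0.92 for Dazl, 0.83 for Zar1l, 0.93 for Eif4enif1 and 0.39 for Pabpc1l, all reversed. With quantile normalization Dazl was 0.2, Zar1l 0.03 and Eif4enif1 0.21, reversed too, and voom gave 0.06 for Eif4enif1. Leaving out 1 library gave −0.56 to 0.4 for Dazl, −0.44 to 0.21 for Zar1l and −0.47 to 0.23 for Eif4enif1, and 0.696 to 7.78 for the P over NP ratio of Ddx6, which was 0.696 without P replicate 4. The members without overlap were 1, and 0 with quantile normalization. Leaving out 1 library gave 1 to 2, the added ones being Patl2 without P replicate 1, Lsm14b without P replicate 3 and Pabpc1l without P replicate 4. By within-library rank 0 members differed at an exact permutation p under 0.05, and 1, Ybx2, by log2 FPKM. The cause of these changes was not tested. A fit blocked on replicate number called 1 gene in all, and no member, and 2 members, Ybx2 and Zar1, had an unadjusted p under 0.05 (adjusted p = 0.362 and 0.369, limma), against 1 without the block. Deviations of same-numbered libraries correlated at 0.139, 0.0518, 0.251 and 0.155 over 11374 genes, and other numbers at −0.135 to 0.136. Every P library correlated best with the NP library of its own number, as did every NP library except replicate 2, whose highest was P replicate 1 at 0.136. The authors describe 4 replicate profiles whose fractions were pooled into NP and P, so both datasets share lysates by design. With 1 of 4 under 0.1 and no label that ties the numbers, which libraries pair is only a hint from the data. The numbers were not taken as pairs, so the main results ignore a pairing that the design holds. By number, only Ybx2 and Lsm14b kept a single direction, lower in P. The share of all genes was not computed. The block gives no value for overlap or ranks. The lowest values hold 5 units of Ddx6 (NP replicate 1) and 1 of Igf2bp3 (P replicate 4). These libraries are the shallowest after NP replicate 2 (33 and 140). Depth was not tested.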
